A study of Arabidopsis thaliana with 36 samples.

Results

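WRKY proteins are plant transcription factors named after a conserved heptapeptide that begins with the residues W, R, K and Y and is followed by a zinc finger. They bind the W-box in the promoters of their targets, and many of their own genes carry W-boxes, so that the family regulates itself in part. Members act in the responses to pathogens, salicylate and wounding, in leaf senescence, in seed and trichome development, and a few act in the supply of phosphate (Pi), where WRKY45 is known to activate the Pi transporter gene PHT1;1.

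The members described here are the genes whose description in the expression table holds the word WRKY. There were 71 such genes, of which the rule set 3 aside (WRKY75, WRKY6 and WRKY42), which left 68 of the 28496 named genes. The label was checked against the RefSeq annotation: 64 of the 68 carry a WRKY symbol or synonym there, out of 72 genes that do. The other 4 are AT3G32090, AT3G56390, AT5G46310 and AT4G31805, the last of which has the synonym POLAR in RefSeq, and none of these 4 codes for a WRKY heptapeptide. Counting heptapeptides and zinc fingers in the translated RefSeq coding sequences placed 11 members in group I (2 heptapeptides), 12 in group III (a C2HC finger) and 40 in group II (1 heptapeptide and a C2H2 finger), while WRKY36 had 1 heptapeptide and no finger of either spacing.

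Shoots and roots were measured separately in seedlings of line 12, line 4 and the Col-0 wild type (WT). Lines 12 and 4 (35S:PHT5;1-GFP#12 and 35S:PHT5;1-GFP#04) are independent transformants that carry PHT5;1, a vacuolar Pi importer, fused to GFP behind the constitutive 35S promoter, and each stands for 1 transformation event. Seedlings had sufficient Pi (250 μM, labelled 10 days) or were moved to 10 μM Pi for 1 or 3 more days, so that age and the transfer to new medium cannot be told apart from Pi in a starvation comparison. Every combination was sequenced in 2 libraries, each from a pool of about 20 seedlings. The methods call the libraries biological replicates without saying whether the pools were grown as separate cultures, so p-values measure the spread between these libraries. As whole organs were sampled, fewer cells of a type and less RNA per cell cannot be told apart.

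Levels are given as RPKM, in which the reads of a gene are divided by its exon length and by the mapped reads of the library. Library totals recovered from these values ran between 19.0 and 40.7 M reads. PHT5;1 (AT1G63010) stood at 65.9 and 74.6 RPKM in line 12 shoots and 35.5 and 19.0 RPKM in line 4 shoots, against 15.2 and 14.7 RPKM in WT shoots at sufficient Pi. In the roots it stood at 338 and 306 RPKM in line 12 and 52.1 and 57.5 RPKM in line 4, against 29.2 and 28.2 RPKM in WT. It was called higher in line 12 in both tissues at every Pi supply and in line 4 in the root, but not in the shoot of line 4. The summed level of 10 genes of green tissue lay between 28418 and 46760 RPKM in shoot libraries and between 198 and 427 RPKM in root libraries, and that of 9 root genes between 134 and 299 RPKM in shoots and between 3820 and 5618 RPKM in roots, with the iron transporter IRT1 under 0.25 RPKM in every shoot library. The second shoot replicates of WT and line 12 at sufficient Pi, of lines 4 and 12 after 1 day and of WT after 3 days shared 313 genes seen in no other library, none of them a member and together at most 0.93% of their summed RPKM. Shoot results are therefore also given without these 5 libraries.

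Tests were made with limma on log2(RPKM + 0.25) over every gene that averaged 0.25 RPKM or more across a tissue, which took in 54 shoot and 56 root members. To be called, a gene needed both an adjusted p under 0.05 and mean levels that differed by a ratio of 2 (shoot) or 1.5 (root). All fold changes below are on that log2 scale, which understates the change of genes of low level, and a standard error (s.e.) goes with each. Members passed the filter on their mean over all libraries, so that some, such as WRKY62, passed mainly through the libraries in which they were high. Without the line 12 libraries the shoot means of WRKY9, WRKY31, WRKY55 and WRKY72 were under 0.25 RPKM.

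The 250 bases before the RefSeq gene start (TAIR10.1) were searched for the W-box, as TTGACC or TTGACT on either strand. A match stood in 32.4% of the 68 member windows and in 28.5% of 26709 windows of all genes in the table, and 14.7% of the member windows and 6.2% of all windows held 2 or more. Of the 18 members called higher in line 12 shoots at sufficient Pi, 7 had a match and 5 had 2 or more, beside 42.2% of all 1394 such genes with a match and 14.3% with 2 or more. The Pi response element P1BS, searched as GNATATNC, matched 3 member windows (4.41%, beside 5.44% of all). A match is a run of letters and was not tested as a binding site. The following windows belong to members whose levels the results turn on: 4 that hold 2 or 3 matches, and WRKY38, whose change was among the largest and whose window holds none. The windows of WRKY40, WRKY46, WRKY51, WRKY54 and WRKY70, also among the 18, hold no match either and are not printed. Capitals mark the W-box letters, which read GGTCAA or AGTCAA where the match lies on the other strand.
WRKY33, chr2:16107985-16108234, plus strand: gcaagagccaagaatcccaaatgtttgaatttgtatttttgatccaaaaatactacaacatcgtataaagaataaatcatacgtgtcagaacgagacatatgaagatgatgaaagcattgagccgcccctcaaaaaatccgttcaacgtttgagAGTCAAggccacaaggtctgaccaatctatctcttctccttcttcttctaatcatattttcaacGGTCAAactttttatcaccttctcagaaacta
WRKY53, chr4:12393983-12394232, minus strand: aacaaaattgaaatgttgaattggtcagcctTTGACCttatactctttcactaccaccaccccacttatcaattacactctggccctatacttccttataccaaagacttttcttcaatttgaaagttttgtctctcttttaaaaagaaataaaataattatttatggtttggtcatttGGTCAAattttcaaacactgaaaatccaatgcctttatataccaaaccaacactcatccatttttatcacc
WRKY30, chr5:8154711-8154960, minus strand: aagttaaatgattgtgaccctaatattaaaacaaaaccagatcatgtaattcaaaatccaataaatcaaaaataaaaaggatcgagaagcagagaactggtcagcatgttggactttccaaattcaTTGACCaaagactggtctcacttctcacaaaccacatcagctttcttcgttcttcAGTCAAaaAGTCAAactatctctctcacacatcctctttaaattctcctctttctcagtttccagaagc
WRKY62, chr5:352096-352345, minus strand: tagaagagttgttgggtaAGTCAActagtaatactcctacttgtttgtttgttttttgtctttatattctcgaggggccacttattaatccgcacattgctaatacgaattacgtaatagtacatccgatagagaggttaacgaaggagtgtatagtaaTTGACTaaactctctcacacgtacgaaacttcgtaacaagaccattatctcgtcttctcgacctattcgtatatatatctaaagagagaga
WRKY38, chr5:7496991-7497240, minus strand: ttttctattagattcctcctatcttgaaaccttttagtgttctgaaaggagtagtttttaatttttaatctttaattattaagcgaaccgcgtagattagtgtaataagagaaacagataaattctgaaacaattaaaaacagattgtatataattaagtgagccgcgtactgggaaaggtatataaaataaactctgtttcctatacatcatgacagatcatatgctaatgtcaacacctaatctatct
The matches of WRKY33 began 96 and 32 bases before the gene start, those of WRKY53 219 and 71 bases, and those of WRKY30 124, 69 and 61 bases. WRKY53 overlaps the gene AT4G23800 on the other strand by 341 bases, and WRKY33 a non-coding gene by 272 bases and AT2G38480 by 26 bases. In all, 12 members overlap a gene on the other strand, and whether reads were counted by strand is not given in the sources used here. AT4G23800 was called by limma in 0 of the 20 comparisons within a tissue. AT2G38480, at a mean of 8.09 RPKM in WT shoots after 1 day, was called lower in 4 shoot comparisons in which WRKY33 was lower too (line 12 after 1 and 3 days, line 4 after 3 days and the response difference of line 4). AT1G80850, which overlaps WRKY40 by 51 bases, was called lower in both shoot response differences, as was WRKY40. The part of the overlaps in these results was not tested.

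In WT shoots, Pi starvation came with higher levels of a small set of WRKY genes known from defence and senescence. Of the 54 members tested, 8 were called higher after 1 day (14.8%, beside 3.94% of all genes tested) and 3 lower (beside 2.13%). After 3 days 10 were called higher (beside 4.32%) and 2 lower (beside 2.48%). The median log2 change of the members was 0.05 after 1 day and -0.02 after 3 days, beside -0.11 and -0.14 over all genes tested, so that most members lay near the bulk of the genes. The summed level of the 68 members was 435 and 431 RPKM at sufficient Pi, 1023 and 1274 RPKM after 1 day and 764 and 1003 RPKM after 3 days.

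The members with the largest changes after 1 day act in defence against pathogens. WRKY33, needed for camalexin synthesis and defence against necrotrophic fungi, stood at 14.4 and 18.1 RPKM at sufficient Pi, at 251 and 245 RPKM after 1 day and at 128 and 182 RPKM after 3 days. Both starved groups lay far above the libraries with sufficient Pi, and the higher level was that of the first day (log2 3.92, s.e. 0.38, limma adjusted p = 1.8e-05 after 1 day, and log2 3.21, s.e. 0.38, limma adjusted p = 8.7e-05 after 3 days). WRKY40, a group IIa factor that restrains basal defence and abscisate signalling, stood at 6.93 and 11.1 RPKM at sufficient Pi, at 111 and 168 RPKM after 1 day and at 27.0 and 48.1 RPKM after 3 days (log2 3.92, s.e. 0.46, limma adjusted p = 6.3e-05 after 1 day). Its relatives WRKY18 and WRKY60, which act with it, were not called at either time: WRKY18 had 33.7 and 70.0 RPKM after 1 day and 26.2 and 59.6 RPKM after 3 days, against 40.9 and 37.7 RPKM at sufficient Pi, so that the groups overlapped. WRKY11, a calmodulin-binding factor that restrains basal resistance, had the smallest spread of the set, with 22.7 and 19.5 RPKM at sufficient Pi, 100 and 99.0 RPKM after 1 day and 60.9 and 65.9 RPKM after 3 days (log2 2.23, s.e. 0.16, limma adjusted p = 3.9e-06 after 1 day). The other 6 calmodulin-binding members (WRKY7, WRKY15, WRKY17, WRKY21, WRKY39 and WRKY74) were not called at either time.

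Among the 10 members listed for roles in salicylate signalling and senescence, 5 were called higher after 1 day (beside 3.94% of all genes tested) and 6 after 3 days (beside 4.32%). None was called lower (beside 2.13% and 2.48%). The list was chosen with earlier results of these data known, so that its counts are not independent support. WRKY53, which promotes leaf senescence, stood at 2.82 and 4.25 RPKM at sufficient Pi, 44.2 and 47.3 RPKM after 1 day and 18.1 and 30.3 RPKM after 3 days (log2 3.63, s.e. 0.41, limma adjusted p = 4.8e-05 after 1 day). WRKY46, a close relative, stood at 12.5 and 35.5 RPKM after 1 day, against 1.23 and 1.65 RPKM at sufficient Pi, with a wide gap between the replicates (log2 3.67, s.e. 0.61, limma adjusted p = 0.00096). WRKY70, a node between salicylate and jasmonate signalling, and WRKY54, which acts redundantly with it, were at similar levels at both times. WRKY70 stood at 26.7 and 37.7 RPKM at sufficient Pi, 147 and 235 RPKM after 1 day and 165 and 205 RPKM after 3 days, and its log2 changes were 2.54 and 2.52 (s.e. 0.31 each). WRKY54 stood at 3.47 and 3.42 RPKM at sufficient Pi, 11.5 and 22.8 RPKM after 1 day and 13.1 and 24.2 RPKM after 3 days. WRKY38, which restrains basal defence together with WRKY62, and WRKY51, which links salicylate to lower jasmonate signalling, were called after 3 days but not after 1 day. WRKY38 reached 2.05 and 2.55 RPKM after 3 days, against 0.247 and 0.516 RPKM at sufficient Pi (log2 2.04, s.e. 0.44, limma adjusted p = 0.0038). WRKY30 was the only member of the list called after 1 day and not after 3 days (log2 1.45, s.e. 0.35, limma adjusted p = 0.01), at levels of 1.58 and 0.877 RPKM after 1 day. WRKY50, WRKY55 and WRKY62 were called at neither time.

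WRKY45, the activator of PHT1;1, had 6.11 and 7.44 RPKM after 3 days, against 3.66 and 2.09 RPKM at sufficient Pi (log2 1.21, s.e. 0.36, limma adjusted p = 0.023), and was not called after 1 day. The members called lower were few. WRKY28, which can activate the salicylate gene ICS1, had 1.87 and 1.33 RPKM after 1 day and 1.56 and 1.2 RPKM after 3 days, against 5.15 and 3.44 RPKM at sufficient Pi (log2 -1.46, s.e. 0.24, limma adjusted p = 0.00078 after 3 days). WRKY29, known from the cascade that follows flagellin, fell to 3.88 and 3.59 RPKM after 1 day and 3.61 and 5.01 RPKM after 3 days, against 9.44 and 8.54 RPKM at sufficient Pi. Its partner in that cascade, WRKY22, was not called at either time, although its 28.4 and 36.4 RPKM after 1 day lay above the 16.3 and 16.2 RPKM at sufficient Pi (log2 0.97, s.e. 0.20, limma adjusted p = 0.0036, ratio under 2). WRKY65 was called lower after 1 day (log2 -1.15, s.e. 0.30, limma adjusted p = 0.014).

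Of the 8 members called higher after 1 day, 7 (87.5%) were also called after 3 days, which is 70% of the 10 called then. Both comparisons share the WT libraries at sufficient Pi, and the overlap over all genes was not computed. The calls of WRKY11, WRKY28, WRKY33, WRKY53 and WRKY70 after 3 days held under every alternative tried, while the count of 10 fell to 6 without the second WT replicate at 3 days and to 5 without the 5 libraries named above, and the 2 lower calls became 1 without the first WT replicate at sufficient Pi. With median-ratio scaling the counts were 9 and 3 after 1 day and 10 and 1 after 3 days, and the share of higher calls among all genes called after 3 days moved to 79.9% with that scaling, against 63.5% as deposited.

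**Figure D1:**
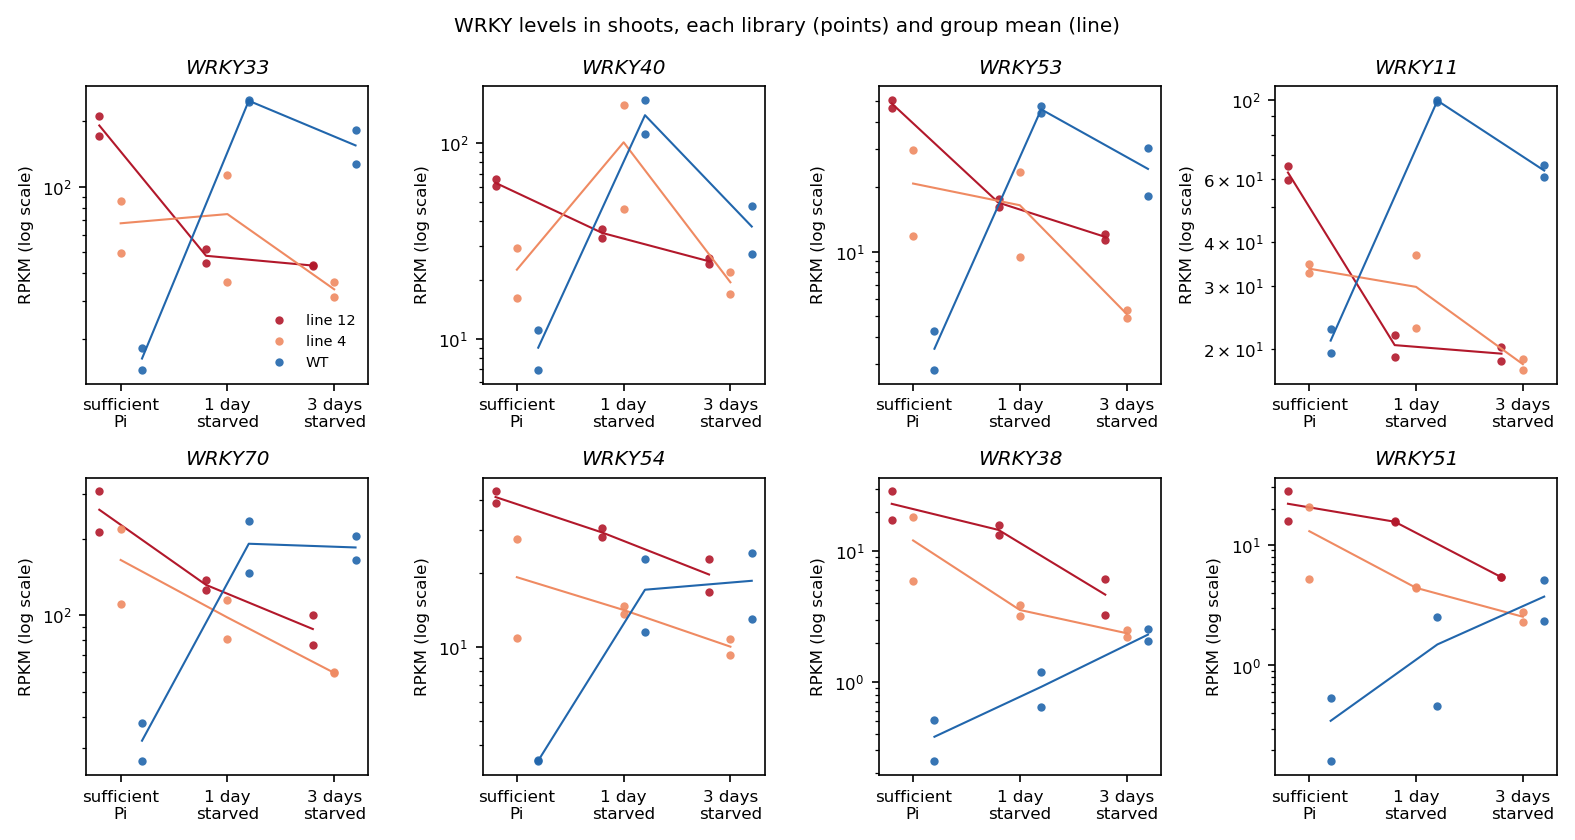
RPKM in shoot libraries (vertical log axis) of WRKY33, WRKY40, WRKY53, WRKY11, WRKY70, WRKY54, WRKY38 and WRKY51 at sufficient Pi and after 1 and 3 days of starvation, with a point for each library and a line through the means of the 2 replicates of line 12, line 4 and WT. At sufficient Pi line 12 stands above WT in every panel, and for WRKY33 and WRKY11 both lines stand below WT after 3 days, as for WRKY33 with 43.2 and 43.8 RPKM in line 12 after 3 days, against 128 and 182 RPKM in WT.

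Most of these genes were also higher in line 12 shoots with sufficient Pi. There 18 of the 54 members tested were called higher than in WT (33.3%, beside 7.06% of all genes tested) and 1 lower (beside 1.98%), with a median log2 change of 0.38 over the members and 0.05 over all genes tested. The summed level of the family was 1022 and 1314 RPKM in line 12, against 435 and 431 RPKM in WT. All 10 salicylate and senescence members were called higher (beside 7.06% of all genes tested), with a median log2 change of 3.60. That list was chosen with earlier results of these data known. WRKY31 and WRKY55 are among the 18, and WRKY55 is among the 10. Both passed the filter only through their line 12 libraries (mean 0.155 and 0.246 RPKM over the other shoot libraries), so that their calls add little to these counts.

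The largest changes were those of WRKY51 and WRKY38, genes that are nearly silent in WT shoots. WRKY51 stood at 15.9 and 28.0 RPKM in line 12, against 0.535 and 0.160 RPKM in WT (ratio of means 63.3, log2 5.24, s.e. 0.63, limma adjusted p = 6.4e-05). WRKY38 stood at 17.1 and 28.7 RPKM in line 12, against 0.247 and 0.516 RPKM in WT (ratio 60.2, log2 5.19, s.e. 0.44, limma adjusted p = 5.8e-06). In starved WT shoots no library exceeded 2.55 RPKM for WRKY38 or 5.13 RPKM for WRKY51. WRKY62, the partner of WRKY38, had 4.09 and 5.46 RPKM in line 12, against 0.0857 and 0.0767 RPKM in WT, where each value rested on 2 reads (log2 3.91, s.e. 0.60, limma adjusted p = 0.00038). WRKY62 was not called in starved WT shoots and stayed at or under 0.331 RPKM in all 6 WT shoot libraries.

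The genes with the largest changes in starved WT shoots were called as well. WRKY33 stood at 170 and 211 RPKM in line 12, against 14.4 and 18.1 RPKM in WT (log2 3.53, s.e. 0.38, limma adjusted p = 3e-05). WRKY53 stood at 46.7 and 50.8 RPKM in line 12, against 2.82 and 4.25 RPKM in WT (log2 3.72, s.e. 0.41, limma adjusted p = 3.2e-05). WRKY70 stood at 212 and 307 RPKM in line 12, against 26.7 and 37.7 RPKM in WT (log2 3.00, s.e. 0.31, limma adjusted p = 2.3e-05). In all 3 genes the line 12 libraries lay far above both WT libraries. WRKY46 had 21.9 and 28.7 RPKM in line 12, against 1.23 and 1.65 RPKM in WT, and WRKY54 had 38.6 and 43.4 RPKM in line 12, against 3.47 and 3.42 RPKM in WT (log2 3.91 and 3.48). WRKY40 had 65.4 and 60.2 RPKM in line 12 and WRKY11 65.4 and 59.8 RPKM, which for both lies below the first day of starvation in WT. WRKY30, linked to oxidative stress and senescence, had 3.10 and 4.01 RPKM in line 12, against 0.324 and 0.232 RPKM in WT (log2 2.84, s.e. 0.35, limma adjusted p = 7.6e-05).

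WRKY50 and WRKY55 completed the salicylate list, at log2 1.23 and 1.95. The other 5 members called higher were WRKY71, WRKY31, WRKY58, WRKY8 and WRKY41, at log2 between 1.03 and 1.89. WRKY28 was the member called lower, with 1.70 and 1.76 RPKM in line 12, against 5.15 and 3.44 RPKM in WT (log2 -1.17, s.e. 0.24, limma adjusted p = 0.0033), and it had also fallen in starved WT. WRKY45 did not pass the test, with 5.30 and 6.15 RPKM in line 12, against 3.66 and 2.09 RPKM in WT (log2 0.98, s.e. 0.36, limma adjusted p = 0.064). WRKY18, WRKY60, WRKY25, WRKY26, WRKY22 and WRKY29 were not called either.

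By protein class, the higher calls took in 9 of the 9 group III members tested, 2 of 10 in group I and 7 of 33 in group II (beside 7.06% of all genes tested). The median log2 change in group III was 3.48. The 9 are WRKY30, WRKY38, WRKY41, WRKY46, WRKY53, WRKY54, WRKY55, WRKY62 and WRKY70, of which WRKY55 passed the filter only through its line 12 libraries. All but WRKY41 are also on the salicylate and senescence list, so that the class count largely repeats those genes. The 3 other members of the class (WRKY64, WRKY66 and WRKY67) stood at or under 0.350 RPKM in every shoot library and were not tested, and WRKY64 and WRKY67 are neighbours of like sequence whose reads may be split uncertainly. In starved WT shoots 5 of the 9 were called higher after 1 day (beside 3.94% of all genes tested) and 5 of the 9 after 3 days (beside 4.32%). Of the 11 members called higher in WT at either time, 10 (90.9%) were called in line 12 at sufficient Pi, which is 55.6% of the 18. WRKY45 was the exception, and both comparisons share the WT libraries at sufficient Pi. The same overlap over all genes was not computed, so that these shares are not read as particular to the family. The calls of WRKY11, WRKY30, WRKY33, WRKY38, WRKY40, WRKY46, WRKY51, WRKY53, WRKY54, WRKY62 and WRKY70 held under every alternative. The other 7 calls (WRKY8, WRKY31, WRKY41, WRKY50, WRKY55, WRKY58 and WRKY71) were lost when the 5 libraries were left out, and the call of WRKY28 was lost without the first WT replicate at sufficient Pi.

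Line 4 shoots at sufficient Pi showed a subset of these changes. There 10 of 54 members were called higher (18.5%, beside 2.59% of all genes tested) and 0 lower by limma (beside 0.622%; 1 member had an unadjusted p under 0.05 and a negative change). All 10 were among the 18 of line 12. The same WT libraries stand on the other side of both comparisons, and the overlap over all genes was not computed. WRKY38 stood at 18.2 and 5.96 RPKM in line 4, against 0.247 and 0.516 RPKM in WT (log2 4.11, s.e. 0.44, limma adjusted p = 0.00017). WRKY70 stood at 219 and 111 RPKM in line 4, against 26.7 and 37.7 RPKM in WT (log2 2.29, s.e. 0.31, limma adjusted p = 0.00083). These calls held under every alternative. WRKY51 (log2 4.24), WRKY62 (2.51), WRKY53 (2.35), WRKY54 (2.26), WRKY46 (2.13), WRKY33 (2.0), WRKY30 (1.40) and WRKY58 (1.34) made up the rest. WRKY40 and WRKY11 were not called, with 29.0 and 16.1 RPKM for WRKY40 and 34.5 and 32.6 RPKM for WRKY11 in line 4.

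The 2 libraries of line 4 stood apart. The first had the higher level of each of the 10 genes, as for WRKY53 with 29.5 and 11.9 RPKM and WRKY62 with 4.26 and 0.539 RPKM, and it also had the higher PHT5;1 level (35.5 and 19.0 RPKM). The count of 10 fell to 4 without the first line 4 replicate, to 6 without the second WT replicate at sufficient Pi and to 5 without the 5 libraries. Whether the transgene level and the WRKY levels are linked was not tested.

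**Figure D2:**
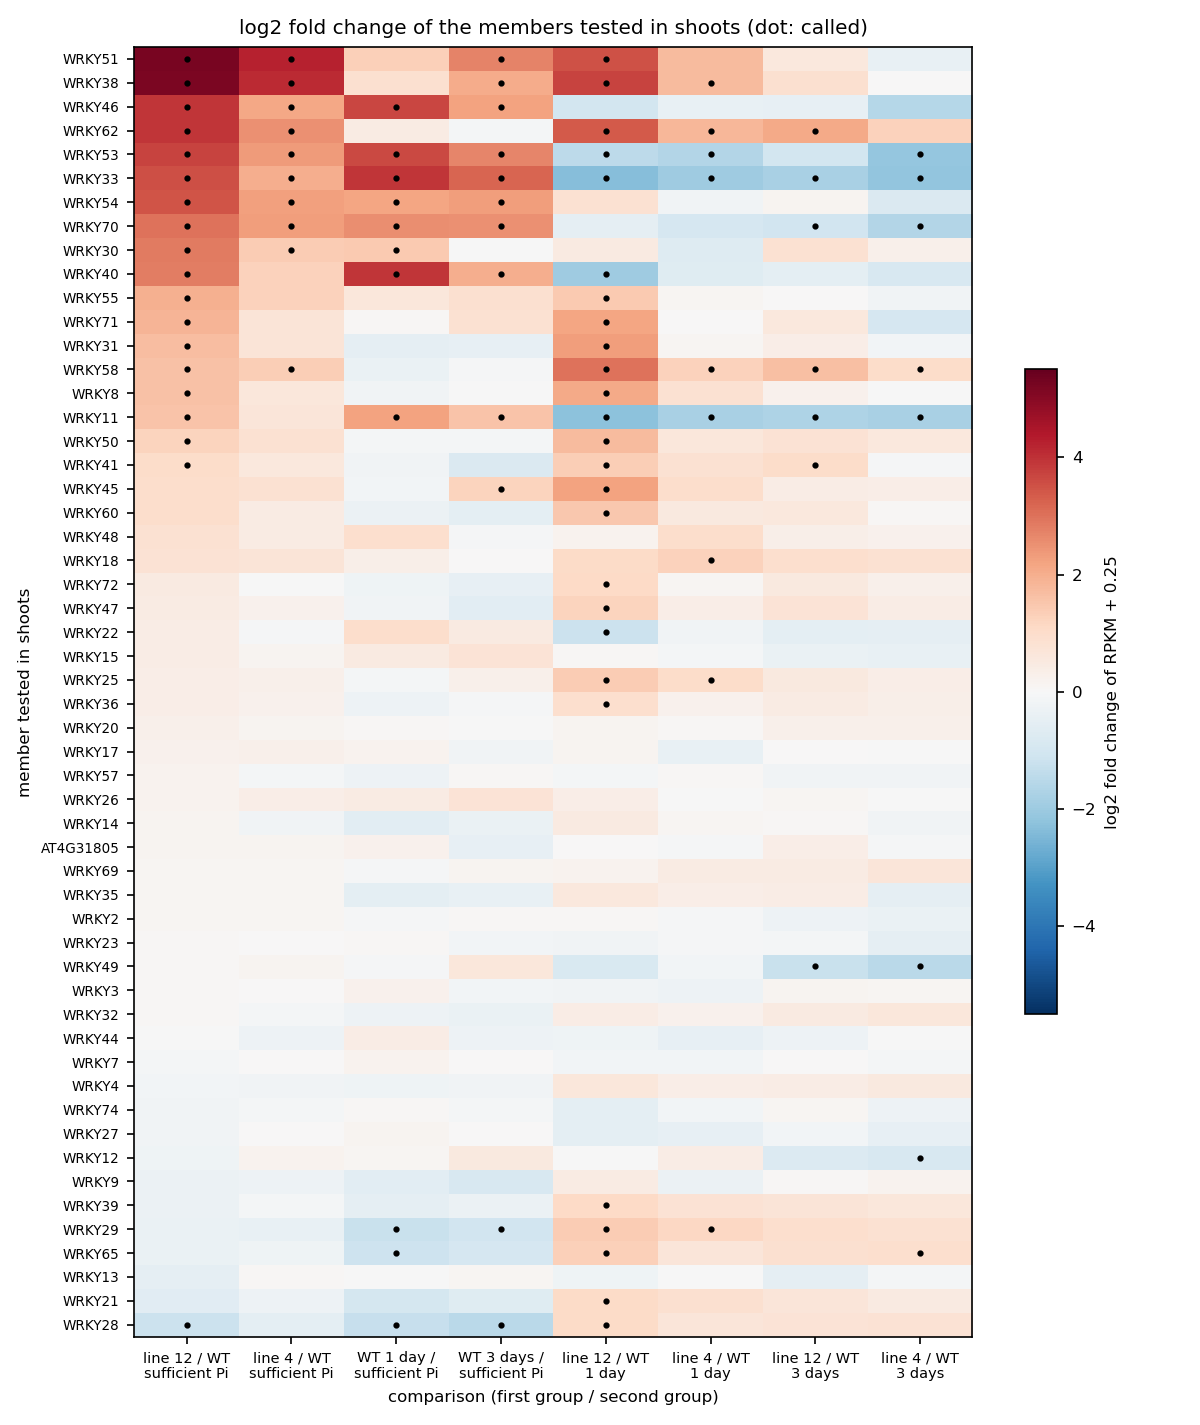
Log2 change on the RPKM + 0.25 scale (colour) of the 54 members tested in shoots (one line each) in 8 comparisons (columns): each line against WT at sufficient Pi, 1 day and 3 days, and starved against sufficient Pi in WT. Dots mark calls, 18 of them higher for line 12 at sufficient Pi, and most members carry no dot in most columns.

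After 1 day of starvation the line 12 shoots differed from WT in both directions. Of the 54 members 21 were called higher (beside 7.37% of all genes tested) and 5 lower (beside 3.98%). The 21 include WRKY31, WRKY55 and WRKY72, which passed the filter only through their line 12 libraries. The 5 lower were WRKY33, WRKY11, WRKY40, WRKY53 and WRKY22, all genes with their highest WT level on that day. The lower calls and the WT peak rest on the same WT libraries, so that they are not separate results. WRKY33 had 51.9 and 44.5 RPKM in line 12, against 251 and 245 RPKM in WT (log2 -2.36, s.e. 0.38, limma adjusted p = 0.00035). WRKY11 had 21.9 and 19.0 RPKM in line 12, against 100 and 99.0 RPKM in WT (log2 -2.27, s.e. 0.16, limma adjusted p = 1.3e-06), beside 22.7 and 19.5 RPKM in WT with sufficient Pi. WRKY40 had 36.7 and 33.0 RPKM in line 12, against 111 and 168 RPKM in WT (log2 -1.97, s.e. 0.46, limma adjusted p = 0.0039).

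The genes that remained higher in line 12 on that day were led by those that starvation had left low in WT, in the same WT libraries that this comparison uses. WRKY38 had 15.7 and 13.3 RPKM in line 12, against 0.643 and 1.19 RPKM in WT (log2 3.70, s.e. 0.44, limma adjusted p = 3.9e-05). WRKY51 (log2 3.49), WRKY62 (3.37), WRKY31 (2.30), WRKY71 (2.15) and WRKY8 (2.07) came next to it. WRKY58 had 3.76 and 3.83 RPKM in line 12, its highest level in any shoot library, against 0.143 and 0.413 RPKM in WT (log2 2.99, s.e. 0.36, limma adjusted p = 4e-05). WRKY45, which was not called at sufficient Pi, had 10.4 and 14.8 RPKM in line 12, against 2.06 and 2.92 RPKM in WT (log2 2.22, s.e. 0.36, limma adjusted p = 0.00037). In the group IIb set WRKY31, WRKY47, WRKY72 and WRKY36 were called higher, at log2 between 0.93 and 2.30, but WRKY31 and WRKY72 passed the filter only through their line 12 libraries (mean 0.155 and 0.173 RPKM over the other 12 shoot libraries), so that no count is read from this set. WRKY25, linked to heat tolerance, WRKY29 and WRKY60 were also called higher, at log2 1.40, 1.42 and 1.46. WRKY70, WRKY54 and WRKY46 were not called on that day.

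Of these 26 calls 17 held under every alternative, and 9 were lost without 1 library. With median-ratio scaling 16 members were higher and 5 lower, and the share of higher calls among all genes called was 49.5%, against 65.0% as deposited. The median log2 difference over all genes tested was 0.19 as deposited, so that small positive differences lie near the bulk of the genes.

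After 3 days fewer members were called, and WRKY33, WRKY11 and WRKY70 were lower in both lines. In line 12, 3 of 54 members were called higher (WRKY62, WRKY58 and WRKY41, beside 3.62% of all genes tested) and 4 lower (WRKY33, WRKY11, WRKY49 and WRKY70, beside 4.07%). In line 4, 2 were called higher (WRKY58 and WRKY65, beside 3.81%) and 6 lower (WRKY33, WRKY53, WRKY11, WRKY70, WRKY49 and WRKY12, beside 4.4%). WRKY33 had 43.2 and 43.8 RPKM in line 12 and 31.2 and 36.5 RPKM in line 4, against 128 and 182 RPKM in WT (log2 -1.80 in line 12 and -2.17 in line 4, s.e. 0.38 each). WRKY11 had 20.3 and 18.5 RPKM in line 12 and 17.4 and 18.8 RPKM in line 4, against 60.9 and 65.9 RPKM in WT (log2 -1.70 and -1.79, s.e. 0.16 each, limma adjusted p = 1.1e-05 and 5.5e-06). In both genes no line library came near a WT library. WRKY53 had 5.33 and 4.93 RPKM in line 4, against 18.1 and 30.3 RPKM in WT (log2 -2.14, s.e. 0.41, limma adjusted p = 0.0013), while the 11.3 and 12.1 RPKM of line 12 did not pass the test. WRKY70 had 76.7 and 99.9 RPKM in line 12 and 59.7 and 59.2 RPKM in line 4, against 165 and 205 RPKM in WT (log2 -1.07 and -1.62). WRKY49, a gene of low level, was at or under 0.332 RPKM in the 4 line libraries, against 1.09 and 0.724 RPKM in WT.

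The 4 lower calls of line 12 were all among the 6 of line 4, and both lists were set against the same 2 WT libraries. How far the lists of all genes overlap was not computed. The calls of WRKY11 and WRKY33 in both lines held under every alternative. The 2 higher calls of line 4 became 1 and 0 without its first and second replicate, and 0 with median-ratio scaling, where the lower calls were 7. In line 12 that scaling gave 2 higher and 6 lower. Among all genes called, the share of higher ones was 28.4% with that scaling in line 12, against 47.1% as deposited, and 29.4% in line 4, against 46.4%.

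In line 4 after 1 day 6 members were called higher (WRKY62, WRKY38, WRKY58, WRKY18, WRKY29 and WRKY25, beside 3.08% of all genes tested) and 3 lower (WRKY33, WRKY11 and WRKY53, beside 2.76%). WRKY18, the abundant group IIa member, had 89.4 and 152 RPKM in line 4, against 33.7 and 70.0 RPKM in WT (log2 1.26, limma adjusted p = 0.03). WRKY33 had 36.7 and 113 RPKM in line 4, against 251 and 245 RPKM in WT. The replicates of line 4 differed widely on that day, as for WRKY40 with 46.3 and 156 RPKM and WRKY46 with 8.77 and 29.2 RPKM. The 6 higher calls became 1 without the first WT replicate of that day or without the 5 libraries, and 3 without the second line 4 replicate, which also took the lower calls to 5. With median-ratio scaling they were 5 and 4, and the share of higher calls among all genes called was 41.5%, against 52.8% as deposited. The calls of WRKY11 and WRKY33 held throughout.

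Whether starvation moved the members differently in the lines was tested directly as the 3-day response of a line minus that of WT, called by adjusted p alone. The leading genes of starved WT shoots had differences far below 0 in both lines. These genes were picked for their rise in WT, which the difference subtracts, so that its sign was set in part in advance. The difference was below 0 for 14 of 54 members in line 12 (beside 13.3% of all genes tested) and for 10 in line 4 (beside 11.5%), and above 0 for 5 in line 12 (beside 19.9%) and 6 in line 4 (beside 18.3%). The median over the members was -0.20 in line 12 and -0.35 in line 4, beside 0.14 and 0.16 over all genes tested.

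In line 12 the difference was largest for WRKY33, at log2 -5.33 (limma adjusted p = 8.7e-06), and it was -4.16 in line 4. WRKY33 had 43.2 and 43.8 RPKM after 3 days in line 12, against 170 and 211 RPKM at sufficient Pi in the same line, the opposite order to that in WT. WRKY53, WRKY51, WRKY46, WRKY38, WRKY70, WRKY54, WRKY40 and WRKY11 came next, between -4.71 and -3.26 in line 12 and between -4.67 and -2.17 in line 4. Group III had a median of -3.35 in line 12. WRKY28, WRKY29, WRKY21 and WRKY39 had a difference above 0 in both lines, at log2 1.94 and 1.36 for WRKY28 and 1.30 and 1.25 for WRKY29. For WRKY28 and WRKY29 the line levels after 3 days lay above those of WT, with 10.1 and 6.99 RPKM for WRKY29 in line 12 and 8.60 and 7.26 RPKM in line 4, against 3.61 and 5.01 RPKM in WT. As the same WT libraries enter both lines, the shared sign between lines is a count and was not tested.

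Of the 19 calls of line 12 and the 16 of line 4, 12 each held under every alternative. Without the 5 libraries 8 members had a difference below 0 in line 12 and 8 in line 4. With median-ratio scaling the counts were 4 above and 15 below 0 in line 12 and 6 and 12 in line 4, while the share above 0 among all genes called was 45.2% in line 12, against 59.8% as deposited, and 41.6% in line 4, against 61.4%.

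Roots held the family at steadier levels. The summed level lay between 650 and 934 RPKM in all 18 root libraries. In WT roots 4 of 56 members were called higher after 1 day (beside 3.58% of all genes tested) and 0 lower by limma (beside 1.41%; 5 members had an unadjusted p under 0.05 and a negative change). After 3 days 10 were called higher (17.9%, beside 8.27%) and 2 lower (beside 4.12%), and the ratios of the higher ones ran between 1.53 and 2.75 apart from WRKY58 (3.29) and WRKY38 (7.91).

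WRKY24, a group II member of low level in shoots, changed at both times, with 2.95 and 2.84 RPKM at sufficient Pi, 6.72 and 6.34 RPKM after 1 day and 7.37 and 8.54 RPKM after 3 days (log2 1.38, s.e. 0.19, limma adjusted p = 7.6e-05 after 3 days). WRKY53, WRKY43 and WRKY56 were the others called after 1 day, at log2 between 0.66 and 0.83. After 3 days WRKY38 had 1.84 and 2.19 RPKM, against 0.0665 and 0.443 RPKM at sufficient Pi (log2 2.27, s.e. 0.40, limma adjusted p = 0.00066). WRKY58 had 3.45 and 3.18 RPKM after 3 days, against 1.01 and 1.00 RPKM at sufficient Pi (log2 1.5, s.e. 0.21, limma adjusted p = 7.7e-05). In both genes the starved libraries lay above both WT root libraries with sufficient Pi. WRKY45, which activates PHT1;1 in the root, had 15.5 and 10.8 RPKM after 3 days, against 8.31 and 8.46 RPKM at sufficient Pi (log2 0.61, s.e. 0.19, limma adjusted p = 0.022). WRKY33 had 42.4 and 50.9 RPKM after 3 days, against 28.8 and 26.4 RPKM at sufficient Pi (log2 0.75, s.e. 0.18, limma adjusted p = 0.0067), a small change beside that in the shoot. WRKY29, which fell in WT shoots, rose to 48.8 and 37.7 RPKM in roots after 3 days, against 23.3 and 24.6 RPKM at sufficient Pi (log2 0.84, s.e. 0.17, limma adjusted p = 0.0017). The 2 members called lower were WRKY74, with 2.36 and 2.27 RPKM after 3 days, against 5.27 and 4.11 RPKM at sufficient Pi (log2 -0.94, s.e. 0.16), and WRKY23, a gene known from auxin responses and root development, with 5.36 and 6.27 RPKM, against 8.52 and 9.52 RPKM (log2 -0.62, s.e. 0.11).

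WRKY33, WRKY38, WRKY45 and WRKY53 were called higher after 3 days in both tissues, 40% of the 10 in each, and the overlap over all genes was not computed. After 3 days the calls of WRKY24, WRKY29, WRKY38, WRKY53, WRKY56, WRKY58 and WRKY74 held under every alternative, and the lower calls became 1 without the first WT replicate of 3 days or the second at sufficient Pi. After 1 day that of WRKY24 held, and the count of 4 became 2 without the first WT replicate at sufficient Pi or of that day and 1 without the second replicate at sufficient Pi, while the count of 0 became 1 without the second replicate of that day.

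**Figure D3:**
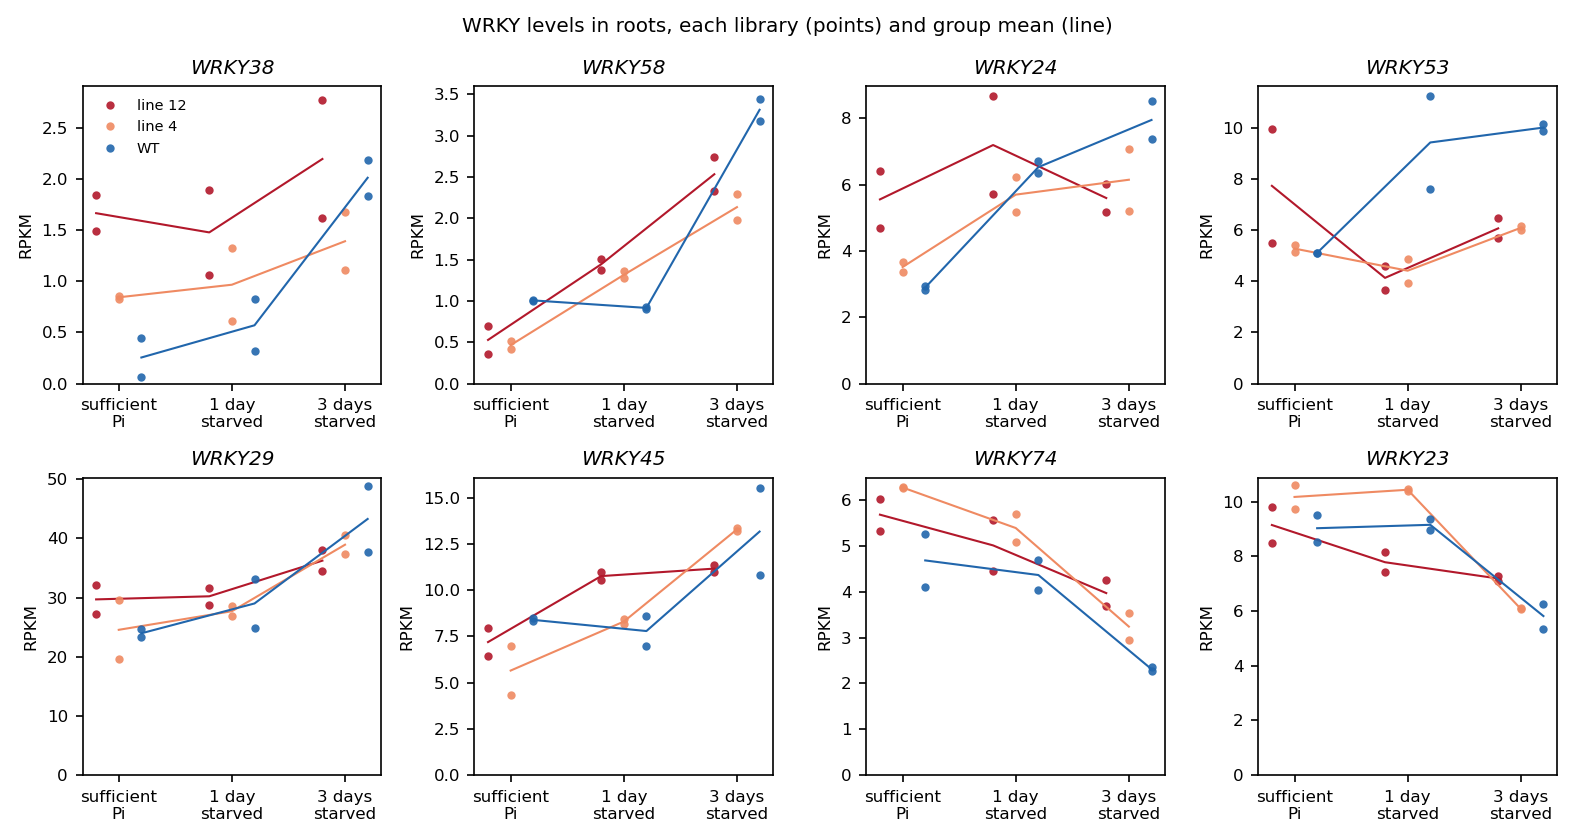
RPKM in root libraries (vertical linear axes) of WRKY38, WRKY58, WRKY24, WRKY53, WRKY29, WRKY45, WRKY74 and WRKY23 at sufficient Pi and after 1 and 3 days of starvation, with a point for each library and a line through the means of 2 replicates of line 12, line 4 and WT. The 2 WT libraries of WRKY24 stand at 7.37 and 8.54 RPKM after 3 days, above the 2.95 and 2.84 RPKM at sufficient Pi, and WRKY74 and WRKY23 slope down.

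In the roots of the lines, where PHT5;1 stood higher than in the shoots, few members were called against WT. In line 12 at sufficient Pi 2 of 56 members were called higher (WRKY38 and WRKY24, beside 2.41% of all genes tested) and 2 lower (WRKY58 and WRKY8, beside 2.69%). WRKY38 had 1.49 and 1.84 RPKM in line 12, against 0.0665 and 0.443 RPKM in WT (log2 2.03, s.e. 0.40, limma adjusted p = 0.0039), and WRKY24 had 4.70 and 6.41 RPKM in line 12, against 2.95 and 2.84 RPKM in WT (log2 0.87, s.e. 0.19, limma adjusted p = 0.0086). WRKY33, WRKY70 and WRKY53 were not called, and WRKY33 had 23 and 28.5 RPKM in line 12 roots, against 28.8 and 26.4 RPKM in WT roots. In line 4 at sufficient Pi 0 members were called higher by limma (beside 0.701%, 3 with an unadjusted p under 0.05) and 2 lower (WRKY58 and WRKY26, beside 3.74%). After 1 day 3 members were called higher in line 12 (WRKY59, WRKY31 and WRKY14, beside 2.45%) and 2 lower (WRKY46 and WRKY53, beside 3.42%). In line 4 on that day 0 were higher by limma (beside 1.37%, 7 with an unadjusted p under 0.05) and 1 lower (WRKY53, beside 1.79%). WRKY53 had 4.60 and 3.66 RPKM in line 12 and 3.94 and 4.89 RPKM in line 4 on that day, against 7.60 and 11.3 RPKM in WT (log2 -1.13 and -1.03). After 3 days WRKY74 was called higher in line 12 (beside 2.38%) and WRKY56 and WRKY53 lower (beside 2.8%), and limma called 0 members in either direction in line 4 (beside 1.26% higher and 1.76% lower, with 4 and 9 at an unadjusted p under 0.05).

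These shares lie near those of all genes, and none of the calls of a line against WT in the root held under every alternative. In line 12 at sufficient Pi the 2 higher calls became 1 without either WT replicate or the second line 12 replicate, and the 2 lower calls became 0 without either WT replicate and 1 without either line 12 replicate. After 1 day the 3 higher calls of line 12 became 0 without its second replicate, and the 2 lower became 0 without that library and 1 without its first replicate or the second WT replicate. After 3 days the 1 higher call became 0 without the second replicate of WT or line 12, and the 2 lower became 0 without either WT replicate or the second of line 12 and 1 without its first. In line 4 at sufficient Pi the 2 lower calls became 6 without its first replicate and 0 without its second or without either WT replicate, and 1 member was called higher without its first replicate or the second WT replicate. After 1 day the 1 lower call of line 4 became 0 without its first or the second WT replicate and 2 without its second, and 1 member was called higher without its first.

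The 3-day response in roots of line 12 minus that of WT was called below 0 for 6 members (beside 6.07%), led by WRKY38 (log2 -1.95), WRKY24 (-1.36) and WRKY53 (-1.22), and above 0 for WRKY39 and WRKY15 (beside 4.99%). The difference of WRKY24 held under every alternative. The 6 became 1 without the second replicate of line 12 at sufficient Pi or of WT after 3 days, 2 without the first WT replicate after 3 days, and 3 without the first WT replicate at sufficient Pi or either line 12 replicate after 3 days. The 2 became 0 without the first line 12 replicate at sufficient Pi or after 3 days, 1 without either WT replicate at sufficient Pi or the second after 3 days, and 6 with median-ratio scaling. In line 4 the difference was called above 0 for WRKY14 and WRKY26 (beside 4.74%) and below 0 for 0 members by limma (beside 1.68%, 4 with an unadjusted p under 0.05). These 2 became 14 without the first line 4 replicate at sufficient Pi, 1 without the first WT replicate at sufficient Pi or after 3 days, and 0 without any of the other 5 libraries, and the 0 became 1 without the second replicate of either genotype at sufficient Pi. With median-ratio scaling the share of higher calls among all genes called was 29.6% for line 4 at sufficient Pi, against 15.8% as deposited, and 55.1% for the response difference of line 4, against 73.9%.

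More members differed between tissues than with Pi supply. In WT at sufficient Pi 8 of the 59 members tested across tissues were called higher in shoots than in roots (13.6%, beside 15.3% of all genes tested) and 30 lower (50.8%, beside 35.9%). Genes entered this test on their mean over all 36 libraries, so that some entered mainly through the tissue in which they were high. WRKY24, WRKY43, WRKY56, WRKY59 and WRKY61 had not passed the filter in shoots, nor WRKY12, WRKY62 and AT4G31805 in roots. The counts are thus set in part by the filter. RPKM are shares of each library's own reads, and the median over all genes tested was log2 -0.65, that over the members -0.97. With median-ratio scaling the counts were 12 and 21, and the share of higher calls among all genes called was 50.0%, against 29.8% as deposited.

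In the group IIb set, a list of 6 members, 5 were called lower in shoots (beside 35.9% of all genes tested). The median log2 difference of the 6 was -4.38. Of the 5, WRKY61 had passed the filter only through the root libraries. Without the line 12 libraries, the shoot means of WRKY9, WRKY31 and WRKY72 were 0.240, 0.155 and 0.173 RPKM. Their entry thus rested mainly on the root libraries, where they were high, so that no count is read from this set. WRKY72 had 0.237 and 0.193 RPKM in shoots, against 21.5 and 20.2 RPKM in roots (log2 -5.51, s.e. 0.19, limma adjusted p = 6.6e-18). WRKY9 had 0.408 and 0.488 RPKM in shoots, against 20.2 and 23 RPKM in roots (log2 -4.97, s.e. 0.16, limma adjusted p = 2.5e-18). WRKY36, WRKY31 and WRKY61 were likewise at or under 1.16 RPKM in WT shoots, while WRKY47 was close to even, with 5.81 and 5.45 RPKM in shoots, against 7.68 and 8.42 RPKM in roots. WRKY65 had 4.09 and 4.07 RPKM in shoots, against 131 and 120 RPKM in roots, where it had the highest mean of the family (log2 -4.85, s.e. 0.23, limma adjusted p = 1.6e-15). Of the 7 calmodulin-binding members, 4 were called lower in shoots (WRKY11, WRKY17, WRKY39 and WRKY74, beside 35.9% of all genes tested). None was called higher (beside 15.3%). WRKY15 and WRKY21 lay the other way. WRKY15 had 72.6 and 64.2 RPKM in shoots, against 43.0 and 42.3 RPKM in roots. WRKY21 had 28.3 and 29.8 RPKM in shoots, against 16.1 and 14.5 RPKM in roots. WRKY45 had 3.66 and 2.09 RPKM in shoots, against 8.31 and 8.46 RPKM in roots (log2 -1.51, s.e. 0.31, limma adjusted p = 0.0001).

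The members higher in shoots were AT4G31805, WRKY70, WRKY18, WRKY12, WRKY22, WRKY40, WRKY28 and WRKY13. WRKY70 had 26.7 and 37.7 RPKM in shoots, against 2.01 and 2.94 RPKM in roots (log2 3.57, s.e. 0.34, limma adjusted p = 1.2e-09). WRKY18 had 40.9 and 37.7 RPKM in shoots, against 4.53 and 4.86 RPKM in roots (log2 3.00, s.e. 0.33, limma adjusted p = 1.4e-08). AT4G31805 had 3.66 and 3.73 RPKM in shoots, against 0.0238 and 0 RPKM in roots. WRKY12, which acts in the secondary wall of stem pith and in flowering, had 0.960 and 1.46 RPKM in shoots and was at 0 in both root libraries. Of the 38 calls 27 held under every alternative. The calls of WRKY11, WRKY13, WRKY40 and WRKY45 were not among those that held.

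Averaged over the 18 libraries of a tissue, the 5 highest members in shoots were WRKY70 (134 RPKM, 26.7 to 307), WRKY33 (97.5, 14.4 to 251), WRKY15 (91.1, 64.2 to 131), WRKY18 (70.7, 26.2 to 152) and WRKY40 (50.2, 6.93 to 168). In roots they were WRKY65 (128 RPKM, 102 to 150), WRKY11 (59.2, 50.0 to 72.6), WRKY39 (51.5, 43.1 to 61.1), WRKY15 (40.9, 32.4 to 48.8) and WRKY17 (39.3, 30.6 to 48.4). Neighbours in these orders overlapped in range, apart from WRKY65, whose lowest root library lay above the highest of WRKY11.

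**Figure D4:**
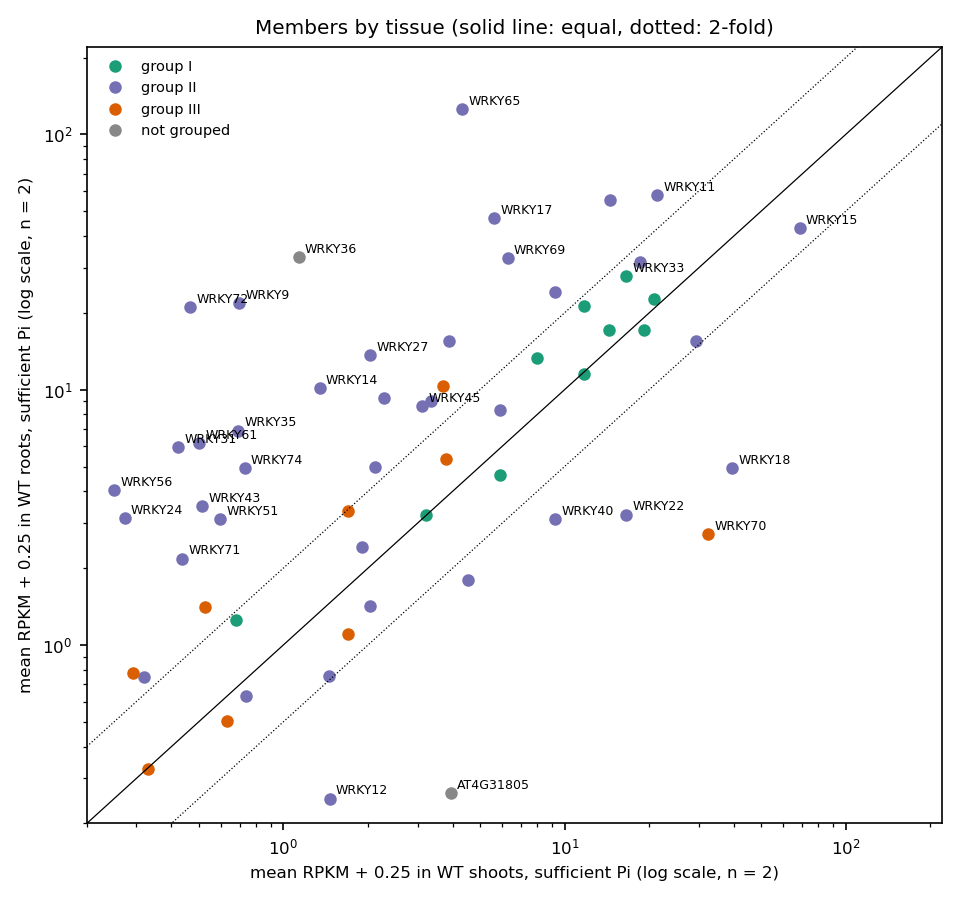
Mean RPKM + 0.25 of the members in WT shoots (horizontal log axis) and WT roots (vertical log axis) at sufficient Pi, with a point for each member coloured by protein class and the diagonal of equal levels. More points lie above the diagonal than below it, with WRKY65 at 4.09 and 4.07 RPKM in shoots, against 131 and 120 RPKM in roots, and WRKY70 and WRKY18 lie below the diagonal with the largest shoot levels among members called higher in shoots.

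A list of 22 partners and targets of WRKY proteins was read beside the family, none of them a member. It too was chosen with earlier results of these data known, so that its counts are not independent support. In line 12 shoots at sufficient Pi 11 of the 22 were called higher (beside 7.06% of all genes tested) and 0 lower (beside 1.98%), and in line 4 shoots 9 (beside 2.59%) and 0 (beside 0.622%). After 1 day the counts were 7 and 1 in line 12 (beside 7.37% and 3.98%) and 4 and 1 in line 4 (beside 3.08% and 2.76%). After 3 days they were 4 and 3 in line 12 (beside 3.62% and 4.07%) and 3 and 3 in line 4 (beside 3.81% and 4.4%). In WT shoots 5 were called higher (beside 3.94% after 1 day and 4.32% after 3 days) and 1 lower (beside 2.13% and 2.48%) at each starvation time. In WT roots, where 21 of the 22 were tested, 4 were called higher after 1 day (beside 3.58%) and 6 after 3 days (beside 8.27%), with 0 lower (beside 1.41% and 4.12%). SIB1, whose product binds WRKY33, stood at 102 and 105 RPKM in line 12 shoots at sufficient Pi, against 13.6 and 12.8 RPKM in WT (log2 2.95), and at 38.3 and 34.0 RPKM in line 12 after 3 days, against 84.8 and 111 RPKM in WT (log2 -1.42). WRKY33 was higher and lower in the same 2 comparisons. After 1 day, when WRKY33 was called lower in line 12, SIB1 was not called, with 59.9 and 61.6 RPKM in line 12, against 54.5 and 96.9 RPKM in WT (log2 -0.26). ACS6, an ethylene synthesis gene that WRKY33 can bind, had 13.5 and 13.9 RPKM in line 12 shoots after 1 day, against 87.7 and 134 RPKM in WT (log2 -2.96, s.e. 0.36, limma adjusted p = 4.6e-05). The camalexin gene PAD3 is the best known target of WRKY33. At sufficient Pi PAD3 was called higher in both lines, as WRKY33 was, with 34.2 and 62.6 RPKM in line 12 shoots and 44.3 and 13.1 RPKM in line 4 shoots, against 1.81 and 0.812 RPKM in WT (log2 4.98 and 4.04). PAD3 had 24.4 and 33.3 RPKM in line 12 shoots and 26.9 and 44.5 RPKM in line 4 shoots after 3 days, against 0.821 and 2.97 RPKM in WT (log2 3.95 and 4.23, s.e. 0.56 each), where WRKY33 was lower in both lines. In WT shoots after 1 day, with WRKY33 at 251 and 245 RPKM, PAD3 stayed at 0.655 and 1.05 RPKM.

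Both salicylate genes described here were higher in the lines at sufficient Pi. PR1, a salicylate marker, had 712 and 979 RPKM in line 12 shoots and 861 and 179 RPKM in line 4 shoots at sufficient Pi, against 49.1 and 2.27 RPKM in WT (log2 6.23, s.e. 1.03, limma adjusted p = 0.00064 in line 12, and log2 5.14 in line 4). In starved WT shoots PR1 was not called, at 4.25 and 10.4 RPKM after 1 day. ICS1, the salicylate synthesis gene, had 16.2 and 20.3 RPKM in line 12 shoots and 13.9 and 8.42 RPKM in line 4 shoots at sufficient Pi, against 4.99 and 4.75 RPKM in WT (log2 1.84, s.e. 0.21, limma adjusted p = 5e-05 in line 12, and log2 1.12 in line 4). After 3 days ICS1 had 5.43 and 7.12 RPKM in line 12 and 6.88 and 8.03 RPKM in line 4, against 7.87 and 8.91 RPKM in WT, and neither line was called. Starved WT shoots were not called against sufficient Pi either (log2 0.75, limma adjusted p = 0.018 after 3 days, ratio under 2). PHT1;1, the target of WRKY45, had 788 and 638 RPKM in WT roots after 3 days, against 218 and 215 RPKM at sufficient Pi (log2 1.71, s.e. 0.16, limma adjusted p = 9.3e-07), but shares reads with a nearly identical neighbour, so that its own level is uncertain. In shoots it stayed at or under 5.39 RPKM in every library, also where WRKY45 was high in line 12.

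Part of the family was quiet, though most of the members tested were called in some comparison within a tissue. The share of all genes that were never called was not computed. Of the 59 members tested in either tissue, 13 were called in none of the 20 comparisons within a tissue: AT4G31805, WRKY2, WRKY3, WRKY7, WRKY9, WRKY13, WRKY17, WRKY20, WRKY27, WRKY35, WRKY44, WRKY61 and WRKY69. Among them are abundant genes such as WRKY3, with shoot levels between 16.6 and 22.9 RPKM over the 18 libraries, and WRKY7. Of the developmental members, WRKY44 (TTG2), needed for trichomes and seed coat, WRKY2, which acts in pollen and in the first division of the zygote, and WRKY13 are in this quiet group, and WRKY10 (MINISEED3), an endosperm gene, and WRKY34, a pollen gene, stood under 0.1 RPKM in every library and were not tested. WRKY71, which promotes shoot branching and flowering, was called higher in line 12 shoots at sufficient Pi and after 1 day. At 0 in all 36 libraries stood AT3G56390, and at 0 in all shoot libraries also AT3G32090 and AT5G46310. A mean under 0.25 RPKM was found for 14 members in shoots and 12 in roots. At that level a gene of 1500 bases has between 7.13 and 15.3 reads, and these members were not tested within that tissue.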

How the data were processed

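RNA of shoots and roots was sequenced in 36 libraries. The authors used CLC Genomics Workbench with TAIR10 and deposited an RPKM value per gene and library, on which everything below rests. Group means, log2 ratios and ontology p-values, which the authors also deposited, were set aside. The 146 entries without a gene name (at most 0.109% of summed RPKM) were left out, and 0 columns belonged to no sample. Library totals, which give the depth behind a value, were recovered from the steps between RPKM of 2414 single-exon genes, with 99.39 to 99.68% of their values whole within 0.02 reads. Members and lists were chosen with earlier results of these data known.

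For each tissue, log2(RPKM + 0.25) of genes averaging 0.25 RPKM or more (19773 shoot genes, 20530 root genes) went into limma 3.58.1 (R 4.3.3), with 9 groups in a common model, a variance trend, no covariate and Benjamini-Hochberg adjustment. Calls needed a ratio of means (floor 0.25 RPKM) of 2 in the shoot and between tissues or 1.5 in the root, with an adjusted p under 0.05. Genes named are, for each comparison, up to 8 called members of largest change, members of fixed roles, the 5 highest in each tissue and those at 0. The script was tested on simulated data for line 12 against WT, where 86 and 95% of changes of log2 1.5 and 2 were found among 19773 shoot genes, with 3 false calls of 184, and 92 and 96% among 20530 root genes, with 6 false calls of 194. Alternatives were a pseudocount of 1, no filter, median-ratio scaling, a replicate block, leaving out each library, and, chosen after seeing the data, leaving out the 5 shoot libraries that share 313 genes.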

Additional observations from a re-analysis of the deposited data

Results flagged for a closer look

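The members below were singled out because their 3-day response to Pi starvation differed between a transgenic line and WT by the test of that difference itself in limma. Each value is the log2 response of the line minus that of WT, so that a negative value means a smaller rise or a larger fall in the line. In line 12 shoots these were WRKY33 (-5.33), WRKY53 (-4.71), WRKY51 (-4.64), WRKY46 (-4.35), WRKY38 (-4.3), WRKY70 (-4.06), WRKY54 (-3.35), WRKY40 (-3.33), WRKY11 (-3.26), WRKY30 (-2.0), WRKY55 (-1.94), WRKY8 (-1.37), WRKY49 (-1.28), WRKY22 (-0.973), WRKY39 (1.03), WRKY65 (1.26), WRKY21 (1.28), WRKY29 (1.3) and WRKY28 (1.94). In line 4 shoots they were WRKY51 (-4.67), WRKY53 (-4.49), WRKY33 (-4.16), WRKY38 (-4.08), WRKY70 (-3.91), WRKY46 (-3.69), WRKY54 (-3.07), WRKY11 (-2.46), WRKY40 (-2.17), WRKY49 (-1.65), WRKY39 (0.739), WRKY32 (0.744), WRKY4 (0.76), WRKY21 (0.803), WRKY29 (1.25) and WRKY28 (1.36).

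A high level in a line at sufficient Pi or in WT after 3 days lowers this value by its definition. Of the genes with the lowest values in both lines, WRKY33, WRKY53, WRKY46 and WRKY70 were high both in line 12 at sufficient Pi and in starved WT shoots. WRKY38 and WRKY51 were high in the lines at sufficient Pi and in line 12 after 1 day, and in starved WT shoots no library exceeded 2.55 RPKM for WRKY38 or 5.13 RPKM for WRKY51. Both were still called higher in WT shoots after 3 days (log2 2.04 and 2.71), which also enters their values. WRKY38 had 3.22 and 6.07 RPKM in line 12 shoots after 3 days, against 17.1 and 28.7 RPKM at sufficient Pi in the same line.

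In line 12 roots the members were WRKY38 (-1.95), WRKY24 (-1.36), WRKY53 (-1.22), WRKY56 (-1.03), WRKY57 (-0.698), WRKY11 (-0.458), WRKY39 (0.41) and WRKY15 (0.519), and in line 4 roots WRKY14 (0.663) and WRKY26 (0.852). The WT libraries enter the values of both lines. Of all genes tested in shoots, 13.3% had such a difference below 0 and 19.9% above 0 in line 12, and 11.5% and 18.3% in line 4.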

How the results depend on the processing

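Under the alternatives no member called as reported changed direction. Of the values called under an alternative only, those of line 4 changed sign without 1 of its replicates for the shoot response difference of WRKY62 (log2 -1.24, and -2.5 to 0.0138 over the libraries left out) and after 1 day for WRKY40 in shoots (-0.68, -1.55 to 0.19) and roots (0.41, -0.44 to 1.27). With median-ratio scaling the median over the members in WT shoots after 3 days was 0.13 (-0.02), and the majority among all genes called turned from higher to lower in both lines after 1 day in the shoot and in both shoot response differences. Leaving out 1 library gave these ranges of members called higher and lower. Shoot: WT 1 day 7 to 10 and 2 to 3, WT 3 days 6 to 8 and 1 to 2, line 12 at sufficient Pi 13 to 18 and 0 to 1, after 1 day 16 to 21 and 4 to 5, after 3 days 2 to 4 and 3 to 4, line 4 at sufficient Pi 4 to 12 and 0, after 1 day 1 to 7 and 2 to 5, after 3 days 0 to 3 and 5 to 6, response differences of line 12 4 to 7 and 11 to 15 and of line 4 5 to 7 and 9 to 14. Root: WT 1 day 1 to 3 and 0 to 1, WT 3 days 7 to 8 and 1 to 2, line 12 at sufficient Pi 1 to 3 and 0 to 1, after 1 day 0 to 4 and 0 to 2, after 3 days 0 to 1 and 0 to 1, line 4 at sufficient Pi 0 to 1 and 0 to 6, after 1 day 0 to 1 and 0 to 2, after 3 days 0 and 0, response differences of line 12 0 to 2 and 1 to 4 and of line 4 0 to 14 and 0 to 1. Shoot against root gave 7 to 9 and 28 to 30. A lone library was taken to vary like the other groups.

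With a pseudocount of 1, the higher calls after 3 days in the shoot became 1 in line 12 (3 as reported) and 1 in line 4 (2), and the lower calls in the root became 1 for WT after 1 day (0), 1 for line 12 at sufficient Pi (2) and 1 for line 4 after 3 days (0). With no filter, line 4 shoots after 3 days had 1 higher, WT roots after 1 day 1 higher (4) and 1 lower, line 12 roots after 3 days 1 lower (2), and the root response differences 3 below 0 in line 12 (6) and 1 above 0 in line 4 (2). With median-ratio scaling, WT after 3 days had 1 lower in the shoot and 1 in the root (2 each), line 4 shoots after 3 days 0 higher, WT roots after 1 day 1 lower, line 4 roots at sufficient Pi 1 lower (2), and the root response differences 6 above 0 in line 12 (2) and 1 below 0 in line 4 (0). Without the 5 shoot libraries, a choice made after seeing the data, the higher calls were 5 for WT after 3 days, 11 for line 12 and 5 for line 4 at sufficient Pi and 1 for line 4 after 1 day, and 8 differences of line 12 lay below 0 (14). The cause was not tested, except that fewer libraries or other genes entered the fit.

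The same replicate number did not mark paired samples in the labels. The median residual correlation of same-numbered libraries was 0.0245 for shoots (-0.178 to 0.699) and 0.0725 for roots (-0.069 to 0.238). With the number as a replicate block, the counts were 1 lower for WT roots after 1 day (0), 5 higher for line 12 roots after 1 day (3), 1 higher for line 4 roots at sufficient Pi (0) and 1 below 0 for the root difference of line 4 (0), and no other count moved by over 1.5 times. Of the values of single members, 8 passed the threshold anew with the block and 0 lost it, 22 lost it with median-ratio scaling, 19 with no filter, 9 with a pseudocount of 1 and 45 without the 5 libraries.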
